A study of Mus musculus with 10 samples.

Results

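The immediate early and AP-1 genes of mouse colon tumors comprised 10 genes chosen by name from the expression table, namely Fos, Fosb, Fosl1, Fosl2, Jun, Junb, Jund, Egr1, Atf3 and Dusp1. All 10 were found among the 16875 gene names of the table, and all 10 were among the 16757 genes with a mean of at least 0.5 FPKM that were tested. RNA sequencing had been done on 10 macrodissected, fresh frozen colon tumors of C57BL/6 mice given azoxymethane (AOM), a mutagen, followed by 3 cycles of 2% dextran sulfate sodium (DSS), which injures the colon lining and causes inflammation. The 5 control tumors carried Wls flox/flox alone, and the 5 Villin-WlscKO tumors carried Wls flox/flox with Villin-CreERT2, a tamoxifen-inducible Cre that the Villin promoter drives in gut epithelium. Wls transports Wnt ligands to the cell surface, so that its loss blocks Wnt secretion from the cells that lost it. The study compared the groups to learn what epithelial Wnt secretion does in such tumors. Mice were 6 to 10 weeks old at the start, and tumors were collected 120 days after AOM. The Villin-WlscKO mice received 5 tamoxifen injections of 80 mg/kg, the first 30 days before collection, while the control mice were, by the study's general description, not injected. Cells in which the Villin promoter is silent, such as stromal and immune cells, are not targeted by this Cre. The number of mice behind the 5 tumors of a group is not given in the sources used here, so that p-values measure the spread between these tumors.

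AP-1 is a dimer of a FOS and a JUN protein, or of JUN proteins with each other or with ATF proteins, that binds DNA through a basic leucine zipper. Fos, Fosb, Jun, Junb, Egr1, Atf3 and Dusp1 are immediate early genes: growth factor, stress or wound signals reach them through MAP kinases and raise their transcripts within minutes without new protein synthesis, and the transcripts decay quickly. Disturbance of tissue during dissection is a known stimulus of the same kind, and the times from dissection to freezing are not given in the sources used here. In intestinal tumors Jun is known to cooperate with Wnt signaling.

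None of the 10 genes passed the test between the groups, and 5 of them varied more between control tumors than 95% of expressed genes did. The test was limma on log2(FPKM + 1), where FPKM is a level scaled to transcript length and to the mapped fragments of a library, with Benjamini-Hochberg adjustment over all genes tested and a threshold of 0.05. Of all genes tested, 10.9% passed it, 6.12% higher and 4.75% lower in Villin-WlscKO tumors. All 10 genes had a lower mean log2 value in Villin-WlscKO tumors, with differences from -0.71 for Fosb to -0.10 for Fos and Dusp1, although Fos turned to 0.0014 with tumors scaled to the same FPKM sum. Their median difference was -0.29, against 0.01 over all genes tested, of which 48.6% were lower. The values of both groups overlapped for all 10, whereas they were fully separate in 10.1% of all genes tested. A single one, Jun, had an unadjusted limma p under 0.05, as did 4308 of all genes tested, and none had an exact permutation p under 0.05. The smallest p that 5 tumors against 5 allow in that two-sided exact test is 0.00794.

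The files give FPKM without counts, so the depth of each tumor is unknown, and the FPKM of a tumor summed to between 1207683 and 1533885. Wls itself lay at 61.3 to 79.9 FPKM in control tumors and at 2.03 to 11.7 FPKM in Villin-WlscKO tumors. Epithelial markers such as Epcam, Cdh1 and Krt8 were present in every tumor, with a summed level of 6320 to 8928 FPKM in control and 7793 to 9900 FPKM in Villin-WlscKO tumors. Xist, transcribed from the inactive X chromosome of females, stood at 0.420 FPKM or less in control tumors and at 439 to 701 FPKM in Villin-WlscKO tumors, while the Y-linked Eif2s3y ran the other way, at 30.4 to 46.6 FPKM against 0.138 FPKM or less. The sex of the mice and the tamoxifen injections thus differed together with the genotype, and their parts in any difference between the groups cannot be told apart. In such bulk tumors, fewer cells of a type and less RNA per cell cannot be told apart either.

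**Figure D1:**
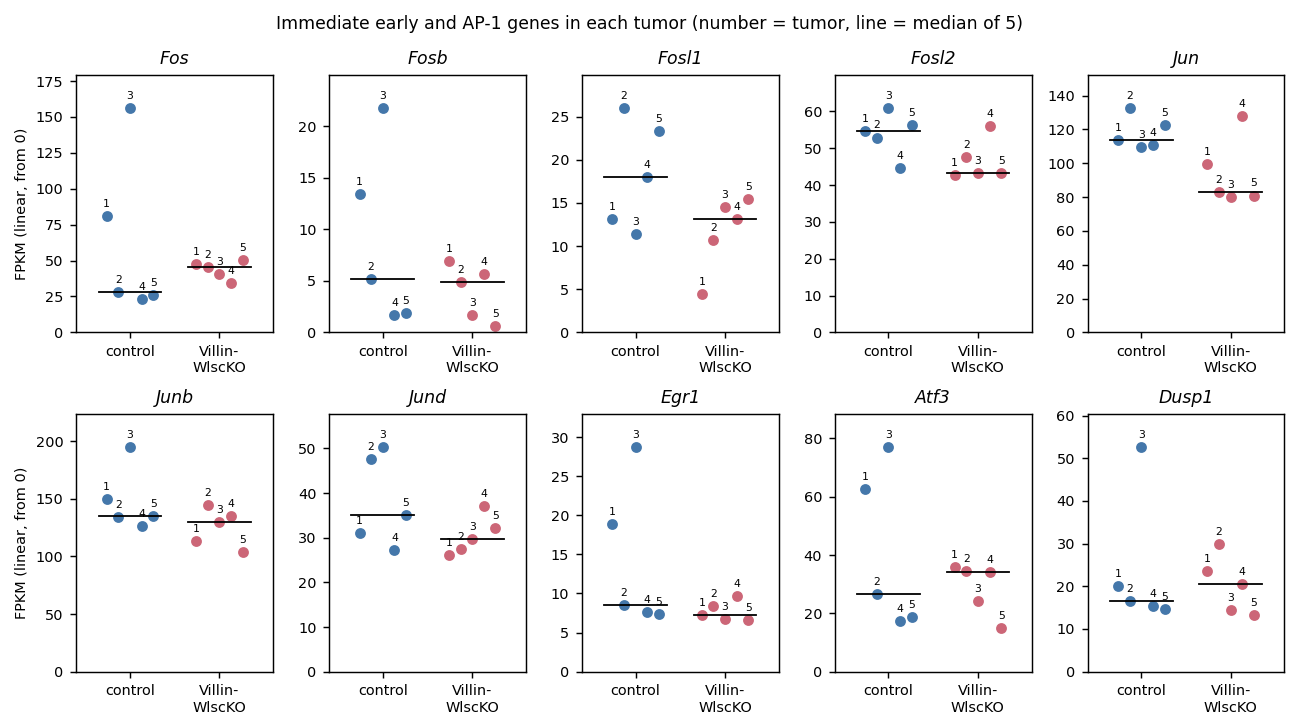
Level of each of the 10 genes in every tumor, in FPKM on a linear axis that starts at 0, with control tumors on the left and Villin-WlscKO tumors on the right of each panel. Points are single tumors with their numbers, lines are medians of 5. Control tumor 3 is the highest of all 10 tumors for 8 of the 10 genes, and control tumor 1 stands beside it for Fos, Fosb, Egr1 and Atf3.

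Fos, the founding FOS subunit, was expressed at 81.3, 27.9, 156, 23.2 and 25.8 FPKM in control tumors 1 to 5. In Villin-WlscKO tumors 1 to 5 it was expressed at 47.5, 45.2, 40.6, 34.6 and 50.5 FPKM. Control tumors 1 and 3 lay above all Villin-WlscKO tumors and the other 3 control tumors below all of them, so that the Villin-WlscKO values filled the gap within the control group. The mean was 62.9 ± 57.5 FPKM (SD, n = 5) in control and 43.7 ± 6.25 FPKM (n = 5) in Villin-WlscKO tumors, whereas the median was the lower one in control tumors, 27.9 against 45.2 FPKM. The log2 difference was -0.10 (SE 0.479, 95% interval -1.16 to 0.96, limma adjusted p = 0.927, exact permutation p = 0.865). Its sign turned when control tumor 1 or control tumor 3 was left out, to 0.10 and 0.33, and neither value passed the threshold. Leaving out both, a choice made after their high values had been seen, gave 0.74 with a limma adjusted p of 0.0107; since the tumors were dropped for their level of Fos and its relatives, that p supports nothing.

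Fosb, a FOS subunit with strong transactivating ability, was the lowest of the 10 genes by median in both groups. It was expressed at 13.4, 5.15, 21.7, 1.67 and 1.91 FPKM in control tumors 1 to 5 and at 6.89, 4.84, 1.71, 5.66 and 0.610 FPKM in Villin-WlscKO tumors 1 to 5. The order of the control tumors matched that of Fos at the top, and the lowest value of all belonged to Villin-WlscKO tumor 5. Its coefficient of variation was 98.7% in control and 67.7% in Villin-WlscKO tumors. The log2 difference was -0.71 (SE 0.663, 95% interval -2.18 to 0.76, limma adjusted p = 0.557, exact permutation p = 0.381), and it was 0.22 without control tumors 1 and 3.

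Fosl1 and Fosl2 encode the FOS-related subunits Fra-1 and Fra-2, which lack the strong transactivation domain of Fos. Fosl1 stood at 13.1, 26.0, 11.4, 18.0 and 23.3 FPKM in control tumors 1 to 5 and at 4.47, 10.7, 14.5, 13.2 and 15.4 FPKM in Villin-WlscKO tumors 1 to 5. Here control tumors 1 and 3 were the lowest of their group, the reverse of Fos. Fosl1 differed by -0.65 on the log2 scale (SE 0.322, 95% interval -1.36 to 0.07, limma adjusted p = 0.240, exact permutation p = 0.111). Its values are uncertain as a measure of Fosl1 alone, because Ccdc85b, an overlapping gene on the opposite strand, is listed with the same values in all 10 tumors.

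Fosl2 was the steadiest FOS gene. Control tumors 1 to 5 held 54.6, 52.9, 60.9, 44.7 and 56.4 FPKM, and Villin-WlscKO tumors 1 to 5 held 42.8, 47.6, 43.1, 56.1 and 43.3 FPKM. Of the Villin-WlscKO tumors, 3 lay below the lowest control tumor, and tumors 2 and 4 lay within the control range. The log2 difference was -0.21 (SE 0.0999, 95% interval -0.43 to 0.02, limma adjusted p = 0.228, exact permutation p = 0.0873).

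Summed over Fos, Fosb, Fosl1 and Fosl2, FOS transcripts came to 144 ± 65.5 FPKM (SD, n = 5) in control tumors, between 87.6 and 250.1, and to 106 ± 4.74 FPKM (n = 5) in Villin-WlscKO tumors, between 99.9 and 110. Fos itself made up 50.1% and 62.4% of the sum in control tumors 1 and 3, 24.0% to 26.5% in the other control tumors, and 31.6% to 46.7% in Villin-WlscKO tumors. Fosl2 was the largest FOS transcript in control tumors 2, 4 and 5, at 47.3% to 52.5% of the sum, and in Villin-WlscKO tumors 2, 3 and 4, at 43.2% to 51.2%. These sums and shares are descriptions without a test.

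**Figure D2:**
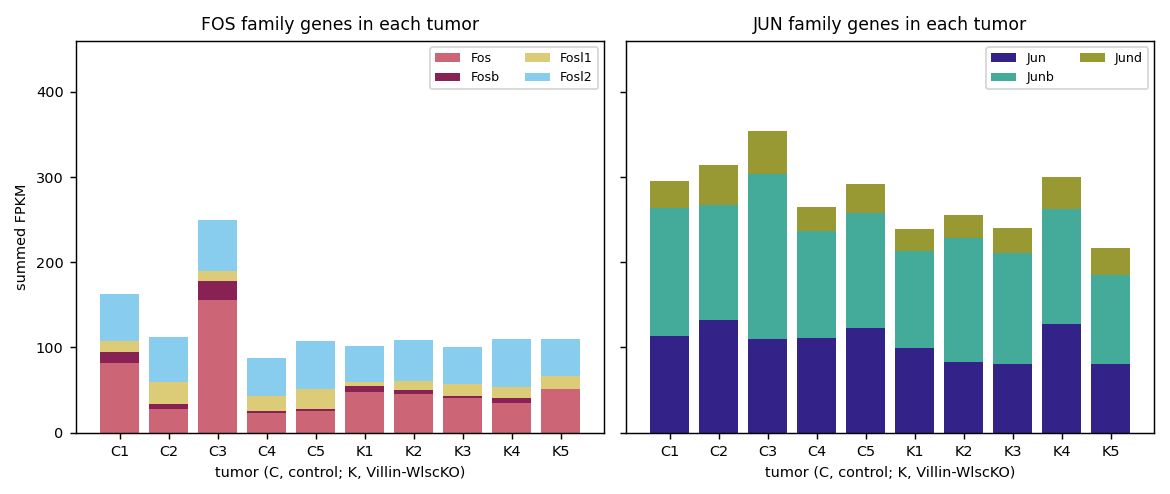
Summed FPKM of the FOS genes (left) and of the JUN genes (right) in each tumor, stacked by gene on linear axes that start at 0. C1 to C5 are control tumors and K1 to K5 Villin-WlscKO tumors. The Fos segment fills 62.4% of the FOS bar in control tumor 3 and 24.0% in control tumor 5, while the JUN bars keep a steadier make-up.

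Jun, the JUN subunit that dimerizes with FOS proteins to give classical AP-1, came nearest to the threshold. It was expressed at 114, 133, 109, 111 and 122 FPKM in control tumors 1 to 5 and at 99.8, 83.3, 80.3, 128 and 80.9 FPKM in Villin-WlscKO tumors 1 to 5. Of the Villin-WlscKO tumors, 4 lay below the lowest control tumor, and Villin-WlscKO tumor 4 lay above all control tumors but tumor 2. The mean was 118 ± 9.75 FPKM (SD, n = 5) against 94.4 ± 20.4 FPKM (n = 5), a log2 difference of -0.34 (SE 0.128, 95% interval -0.62 to -0.05). The unadjusted limma p of 0.0248 became 0.127 after adjustment, and the exact permutation p was 0.0635. Without Villin-WlscKO tumor 4 the log2 difference was -0.45 with a limma adjusted p of 0.0146, so that 1 tumor decided whether Jun passed. Jun is overlapped by the antisense gene Junos, and the study ran its protocol with default settings, which ignore the strand of a read, so that reads of both may be counted together.

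Junb, a JUN subunit with weaker transactivation, was the most abundant of the 10 genes by median in both groups. Its levels were 150.0, 134, 195, 127 and 135 FPKM in control tumors 1 to 5 and 113, 145, 130.3, 135 and 104 FPKM in Villin-WlscKO tumors 1 to 5. Apart from control tumors 1 and 3, all tumors lay between 104 and 145 FPKM. The log2 difference was -0.23 (SE 0.129, 95% interval -0.52 to 0.06, limma adjusted p = 0.295, exact permutation p = 0.143). Junb is overlapped by Prdx2 on the opposite strand, so that reads of both may be counted together here too.

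Jund, the JUN subunit that most cells express without stimulation, stood at 31.0, 47.6, 50.2, 27.2 and 35.0 FPKM in control tumors 1 to 5 and at 26.2, 27.6, 29.7, 37.1 and 32.1 FPKM in Villin-WlscKO tumors 1 to 5. Control tumors 2 and 3 were above the rest, and the other tumors of both groups mixed. It differed by -0.28 on the log2 scale (SE 0.172, 95% interval -0.66 to 0.10, limma adjusted p = 0.334, exact permutation p = 0.198). The 3 JUN genes together gave 304 ± 33.3 FPKM (SD, n = 5) in control and 250.4 ± 31.0 FPKM (n = 5) in Villin-WlscKO tumors.

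Egr1, a zinc finger transcription factor induced through serum response factor and its ELK partners, was, like Fos, highest in control tumors 1 and 3. Among Villin-WlscKO tumors Egr1 was highest in tumor 4 and lowest in tumor 5, the reverse of Fos. Its levels were 18.9, 8.53, 28.7, 7.66 and 7.34 FPKM in control tumors 1 to 5 and 7.25, 8.43, 6.74, 9.62 and 6.63 FPKM in Villin-WlscKO tumors 1 to 5. Outside control tumors 1 and 3 all 8 tumors lay between 6.63 and 9.62 FPKM. The log2 difference was -0.61 (SE 0.339, 95% interval -1.36 to 0.14, limma adjusted p = 0.292, exact permutation p = 0.167), and it shrank to -0.03 without those 2 tumors.

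Atf3, a stress-induced bZIP factor that pairs with JUN proteins, was expressed at 62.6, 26.5, 76.9, 17.4 and 18.9 FPKM in control tumors 1 to 5 and at 35.9, 34.5, 24.2, 34.2 and 14.97 FPKM in Villin-WlscKO tumors 1 to 5. The same 2 control tumors were on top, and Villin-WlscKO tumor 5 was the lowest of all. As for Fos, means and medians ran in opposite directions: the mean was 40.5 against 28.7 FPKM and the median 26.5 against 34.2 FPKM. Its log2 difference was -0.29 (SE 0.431, 95% interval -1.24 to 0.67, limma adjusted p = 0.737, exact permutation p = 0.571), 0.01 without control tumor 3 and 0.40 without control tumors 1 and 3.

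Dusp1, the phosphatase that inactivates MAP kinases in the nucleus and so feeds back on its own inducers, stood at 20.05, 16.6, 52.5, 15.4 and 14.8 FPKM in control tumors 1 to 5 and at 23.5, 29.9, 14.5, 20.4 and 13.3 FPKM in Villin-WlscKO tumors 1 to 5. Control tumor 3 stood alone, since control tumor 1 was within the range of the rest. The mean was 23.9 against 20.3 FPKM and the median 16.6 against 20.4 FPKM, again in opposite directions. The log2 difference was -0.10 (SE 0.344, 95% interval -0.86 to 0.66, limma adjusted p = 0.893, exact permutation p = 0.825) and 0.22 without control tumor 3.

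**Figure D3:**
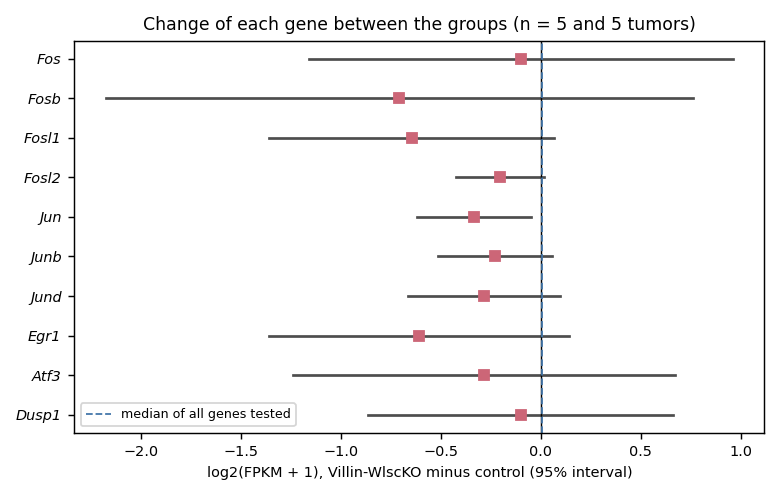
Difference in log2(FPKM + 1) between Villin-WlscKO and control tumors for each gene, with the 95% interval from limma (n = 5 and 5 tumors). The dashed line is the median of all genes tested, 0.01. All 10 squares lie below 0, that of Fos moving to 0.0014 with tumors scaled to the same FPKM sum, and all intervals but that of Jun, -0.62 to -0.05, reach across 0.

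By median level per transcript length, control tumors ran from Junb and Jun through Fosl2, Jund, Fos, Atf3, Fosl1, Dusp1 and Egr1 to Fosb. Villin-WlscKO tumors ran from Junb and Jun through Fos, Fosl2, Atf3, Jund, Dusp1, Fosl1 and Egr1 to Fosb. Among neighbors in the order of control tumors, the ranges of 5 tumors were separate only between Jun and Fosl2. In Villin-WlscKO tumors they were separate between Jun and Fos and between Fosl2 and Atf3, and all other neighbors overlapped.

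Within control tumors the SD of log2(FPKM + 1) was 1.37 for Fosb, 1.20 for Fos, 0.96 for Atf3, 0.83 for Egr1 and 0.74 for Dusp1. These 5 lay above the 95th percentile of the 11793 genes with a mean of at least 5 FPKM, whose median SD was 0.17 in control and 0.18 in Villin-WlscKO tumors. The other members had 0.49 for Fosl1, 0.38 for Jund, 0.24 for Junb, 0.16 for Fosl2 and 0.12 for Jun. Within Villin-WlscKO tumors Fosb alone, with an SD of 0.98, passed the 95th percentile.

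The SD was the larger one in control tumors for 7 of the 10 genes, against 5326 of the 11793. It was 1.20 in control and 0.21 in Villin-WlscKO tumors for Fos and 0.83 and 0.20 for Egr1, both with an exact permutation p of 0.00794 on values centered by group, the smallest this test can give. Over the 10 genes these were the only tests of the SD with an exact p under 0.05, which 6.98% of the 11793 genes reached, 2.66% of them with the larger SD in control tumors. The smallest p was reached by 1.4% of them, and after Benjamini-Hochberg adjustment over all 11793 genes the exact test gave 0.567 for Fos and Egr1, the lowest adjusted value of any gene. Without control tumor 3 alone, the SD of Fos differed by -0.61 in place of -0.99 (exact p = 0.0159) and that of Egr1 by -0.39 in place of -0.62 (exact p = 0.0873). Without control tumors 1 and 3, the differences were 0.08 and 0.10, which the choice of the highest tumors fixes and which supports nothing.

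**Figure D4:**
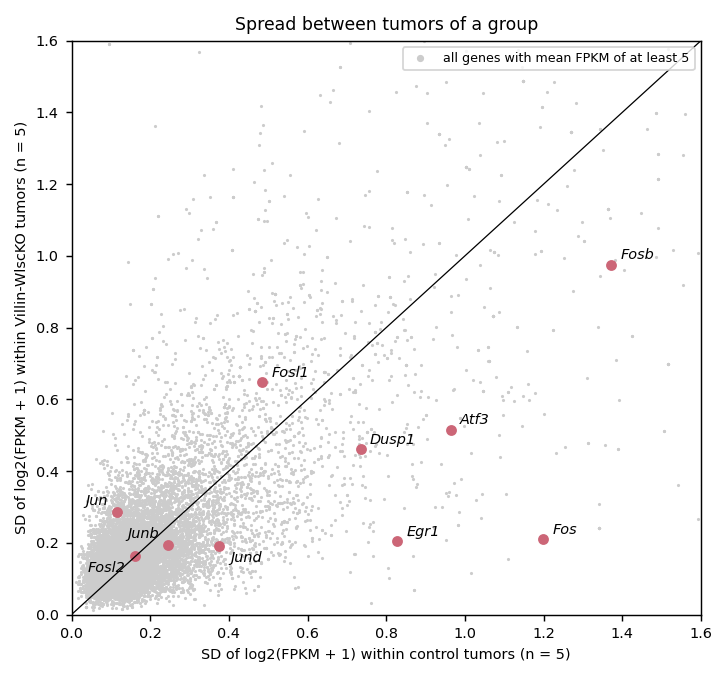
SD of log2(FPKM + 1) within control tumors (horizontal) against that within Villin-WlscKO tumors (vertical), n = 5 each, for the 10 genes and, in gray, for all 11793 genes with a mean of at least 5 FPKM. Genes beyond 1.6 are not drawn, and the line marks equal SDs. Fos, at 1.20 and 0.21, and Egr1, at 0.83 and 0.20, lie far below the line.

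The tumors with high values were largely the same from gene to gene. Control tumor 3 was the highest of all 10 tumors for 8 of the 10 genes, all but Fosl1 and Jun, for which it was the lowest control tumor. Over the 11793 genes it was the highest in 9.5%. Control tumor 1 was among the top 2 for Fos, Fosb, Junb, Egr1 and Atf3. Control tumor 4 was the lowest control tumor for 6 genes, and Villin-WlscKO tumor 5 the lowest of its group for Fosb, Junb, Egr1, Atf3 and Dusp1.

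**Figure D5:**
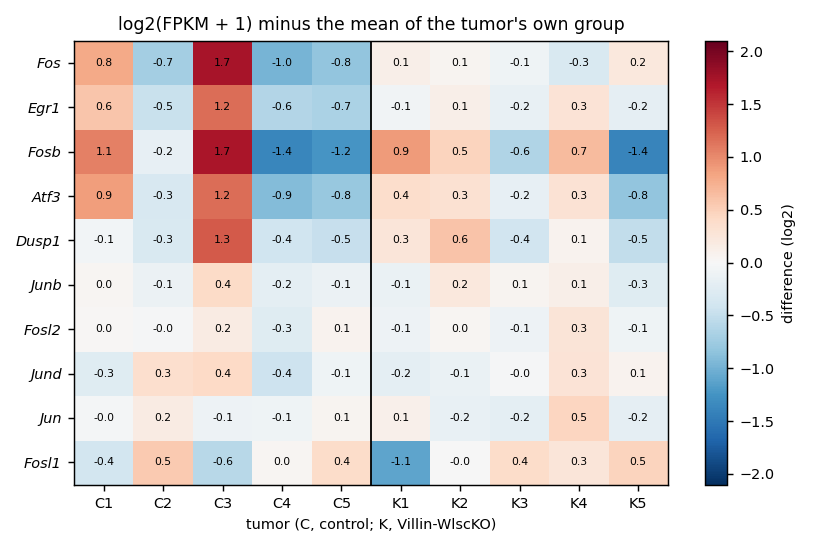
Value of log2(FPKM + 1) of each gene in each tumor minus the mean of the tumor's own group (C1 to C5 control, K1 to K5 Villin-WlscKO). Red is above and blue below the group mean. Control tumors 1 and 3 are red for Fos, Egr1, Fosb and Atf3, and Fosl1 runs the other way in the same tumors.

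After each value was centered on its group mean, Fos and Egr1 correlated with a Pearson r of 0.92 over the 10 tumors, and Fosb and Atf3 with 0.98. Fos correlated with Atf3 at 0.81, with Dusp1 at 0.75, with Jun at -0.31 and with Fosl1 at -0.56. Without the 2 tumors farthest from the median of Fos, control tumors 3 and 4, r with Fos was 0.78 for Egr1, 0.62 for Atf3, 0.47 for Fosb and 0.25 for Dusp1. Control tumor 1, high for Fos and Egr1, was still among the tumors left. These correlations describe 10 libraries, in which a few tumors carry most of the variation, and have no p.

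Among the 10600 other genes compared, Hbegf, the EGF receptor ligand HB-EGF, was most like Fos by this measure (r = 0.94, Spearman's rho = 0.87, and r = 0.85 without control tumors 3 and 4). Its level was 24.5, 10.9, 39.6, 10.7 and 9.56 FPKM in control tumors 1 to 5 and 10.96 to 16.1 FPKM in Villin-WlscKO tumors. After it came Stx16, Atp2a2, RP24-324L19.3, Bop1, Mrps18b, Eif3d, Gm13394, Psmd4 and Pkm, with r between 0.90 and 0.93. Gm13394 is in this list only through Villin-WlscKO tumors, where it stood at 120.1 FPKM or more, and its values of 0.604 FPKM or less in control tumors leave its likeness to Fos there without a reading. Nearest to Atf3 were Nolc1 (r = 0.98), Pus7 (0.97), the immediate early nuclear receptor Nr4a1 (0.96), Gnai2 (0.95) and Polr1a (0.95). Nr4a1 was expressed at 32.0, 13.6, 38.9, 7.32 and 8.24 FPKM in control tumors 1 to 5 and at 5.79 to 19.0 FPKM in Villin-WlscKO tumors.

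Promoter sequences are shown for 4 of the genes that were high together in control tumor 3 and for Jun, which was not. Each run is the 200 bases before the RefSeq start site on GRCm38.p6, read 5′ to 3′ on the gene's strand, at chr12:85473690-85473889 (plus strand) for Fos, chr7:19310046-19310245 (minus) for Fosb, chr1:191183334-191183533 (minus) for Atf3, chr17:26508473-26508672 (minus) for Dusp1 and chr4:95052223-95052422 (minus) for Jun. Capitals mark TGACG, the core of the site of CREB and ATF factors, and TGACNTCA, the full site with any base in the middle, on either strand.
Fos: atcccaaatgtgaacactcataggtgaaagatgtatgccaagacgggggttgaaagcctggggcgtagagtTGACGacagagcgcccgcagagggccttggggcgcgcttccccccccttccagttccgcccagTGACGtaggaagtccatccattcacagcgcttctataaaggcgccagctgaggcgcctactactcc
Fosb: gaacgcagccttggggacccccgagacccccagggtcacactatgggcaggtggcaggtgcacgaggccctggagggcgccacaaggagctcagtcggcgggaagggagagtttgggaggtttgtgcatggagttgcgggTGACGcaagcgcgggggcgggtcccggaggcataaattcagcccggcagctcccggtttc
Atf3: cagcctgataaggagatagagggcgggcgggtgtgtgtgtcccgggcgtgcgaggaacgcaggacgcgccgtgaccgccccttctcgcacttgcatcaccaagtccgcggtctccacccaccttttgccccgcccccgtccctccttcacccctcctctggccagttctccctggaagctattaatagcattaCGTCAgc
Dusp1: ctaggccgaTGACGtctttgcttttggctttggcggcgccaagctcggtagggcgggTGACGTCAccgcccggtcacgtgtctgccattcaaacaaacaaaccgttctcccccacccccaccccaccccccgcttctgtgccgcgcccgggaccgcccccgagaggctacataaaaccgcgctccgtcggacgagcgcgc
Jun: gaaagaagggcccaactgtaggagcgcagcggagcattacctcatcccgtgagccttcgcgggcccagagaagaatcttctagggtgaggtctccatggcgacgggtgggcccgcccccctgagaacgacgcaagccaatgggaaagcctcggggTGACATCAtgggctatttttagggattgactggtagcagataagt

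TGACG stood in 5 of the 8 promoters used, against 15.7% of 32851 mouse promoter windows of the same length searched on both strands. The promoters of Fosl1 and Egr1 were not among the 8. It began 129 and 66 bases before the start of Fos, 60 before that of Fosb and 106 before that of Junb, and on the other strand 7 bases before that of Atf3. Dusp1 held it at 191 bases and within the palindrome TGACGTCA at 143 bases, a match found in 1.47% of windows. Jun held no TGACG but TGACATCA at 45 bases, as a match to TGACNTCA, which 6.62% of windows held and which includes TGACGTCA. GCGNGGGCG, the EGR site, occurred before Fosb and Fosl2 and in 4.28% of windows. TGANTCA, the AP-1 site, occurred in none of the 8 promoters and in 5.48% of windows. The CArG box, to which serum response factor binds, also occurred in none of the 8 and in 1.18% of windows. The motifs were chosen after the values had been seen, and a match or its absence in this window says nothing of binding in these tumors.

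On GRCm38 the annotation (GENCODE M21) places Fos on chromosome 12 from 85473890 to 85477273, Fosb on chromosome 7 from 19302696 to 19310051 and Jun on chromosome 4 from 95049034 to 95052222. Junb lies on chromosome 8 from 84974484 to 84978718, and Jund on the same chromosome from 70698949 to 70700616. Atf3 lies on chromosome 1 from 191170296 to 191218039, Dusp1 on chromosome 17 from 26505590 to 26562128, Fosl1 on chromosome 19 from 5447547 to 5455946 and Fosl2 on chromosome 5 from 32135801 to 32157842. Fosl1, Jun, Junb, Jund, Atf3 and Dusp1 are overlapped by other annotated genes, and Fos, Fosb, Fosl2 and Egr1 by none.

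Of 42 other immediate early genes with a mean of at least 5 FPKM, 7 had an SD above the 95th percentile in control and 2 in Villin-WlscKO tumors. Of 48 tested between the groups, Areg rose and Gem fell, and the median log2 difference was -0.08. Areg, encoding the EGF receptor ligand amphiregulin, rose from 21.1 to 43.4 FPKM on average (log2 1.06, limma adjusted p = 0.0305). Gem, a small GTPase, fell from 10.1 to 4.92 FPKM (log2 -0.89, limma adjusted p = 0.00538). Control tumor 3 was the highest of all 10 tumors for 23 of the 48, or 47.9%, among them Ptgs2, with 43.5 FPKM against 2.01 to 14.1 FPKM in all others, a gene named after its values were seen. Their summed level was 2330 FPKM in control tumor 3, 1724 in control tumor 1, 1565 to 1693 in the other control tumors and 1518 to 1792 in Villin-WlscKO tumors.

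Among 23 other bZIP factors that can pair with or compete with AP-1, 2 rose and 1 fell, with a median log2 difference of 0.01. Batf2, a partner of JUN proteins known from interferon responses, rose from 7.13 to 31.3 FPKM (log2 2.00, limma adjusted p = 5.67e-05). Jdp2, a JUN-dimerizing repressor, rose from 4.69 to 9.84 FPKM (log2 0.87, limma adjusted p = 0.0354), and Mafg, a small Maf protein, fell from 97.5 to 69.7 FPKM (log2 -0.47, limma adjusted p = 0.00573).

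None of the 28 MAP kinase cascade genes and serum response factor partners tested passed the threshold by limma, while 5 of them had an unadjusted p under 0.05. Those nearest to it were Map2k3 (log2 0.27, limma adjusted p = 0.0795) and Srf (log2 -0.23, limma adjusted p = 0.110). Of 16 feedback inhibitors of MAP kinases other than Dusp1, Dusp6, the ERK phosphatase, rose from 32.8 to 45.2 FPKM (log2 0.46, limma adjusted p = 0.0106), and none fell by limma. Of the 16, 13 were lower in Villin-WlscKO tumors, 5 of them at an unadjusted p under 0.05, and the median log2 difference was -0.17. Over all 16757 genes tested, 48.6% were lower, and 4308 had an unadjusted limma p under 0.05 in either direction. Control tumor 3 was the highest of all 10 tumors for 4 of the 23 bZIP factors, 6 of the 28 cascade genes and 8 of the 16 feedback inhibitors. Over the 11793 genes with a mean of at least 5 FPKM it was the highest in 9.5%.

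Of 25 genes known as AP-1 targets, 3 rose and 1 fell, and the median log2 difference was 0.02, or 0.04 with entries of the same values counted once. Control tumor 3 was the highest of all 10 tumors for 13 of the 25. Of 23 with a mean of at least 5 FPKM, 10 had an SD above the 95th percentile in control and 5 in Villin-WlscKO tumors. Mmp3 and Mmp10, which are listed with the same values, are both in these counts. Mmp7, an epithelial matrix protease, rose from 369 to 863 FPKM (log2 1.17, limma adjusted p = 0.0153). Sprr1a, a cornified envelope protein, rose from 52.4 to 129 FPKM (log2 1.52, limma adjusted p = 0.0302) and Nqo1, a quinone reductase, from 13.7 to 29.3 FPKM (log2 1.02, limma adjusted p = 0.00438). Mmp9, a gelatinase, fell from 21.9 to 6.97 FPKM (log2 -1.53, limma adjusted p = 0.0197).

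Values of other lists are given because tissue state or cell mixture can move with these genes, and their part in the spread was not tested. Of 20 heat shock genes, Cryab fell (log2 -0.88, limma adjusted p = 0.0278), the median log2 difference was 0.00, and control tumor 3 was the highest of all 10 tumors for 0 of the 20. The summed heat shock level of control tumors 1 and 3 was 2599 and 2754 FPKM, the top of a control range of 2280 to 2754, with 2196 to 2871 FPKM in Villin-WlscKO tumors. Of 18 hypoxia genes 7 rose and none fell by limma, with a median log2 difference of 0.40. At an unadjusted limma p under 0.05, 8 were higher and 1 lower, against 4308 of all 16757 genes tested in either direction. The 7 were led by Ero1l (log2 1.20), Adm (0.78), Pdk1 (0.75) and Slc2a1 (0.55). By summed hypoxia level, control tumors 1 and 3 stood at 827 and 973 FPKM in a control range of 808 to 973.

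Among control tumors, tumor 3 had the highest and tumor 1 the lowest summed level of fibroblast markers, at 1422 and 741 FPKM. Vim alone of these markers was lowest in control tumor 1, at 212 FPKM against 364 to 521 in the other control tumors. Pdgfra, at 22.0 FPKM, was highest there among control tumors. For smooth muscle markers control tumors 3 and 1 were again highest and lowest of their group, at 166 and 74.9 FPKM. Control tumors 1 and 3 topped the control group for the summed epithelial markers, at 8071 and 8928 FPKM against 6320 to 7656 in the others. Singly, this held for Epcam, Krt8, Krt19, Krt20 and Vil1, but not for Cdh1, Krt18, Cdx2, Cldn7 and Elf3. Among control tumors, Cdh1 was lowest in tumor 3, at 66.8 FPKM, and Krt18 was lowest in tumor 1, at 712 FPKM. Control tumors 1 and 3 were also on top of their group for the summed squamous, endothelial and enteric neuron lists. The same held for the summed level of the 5 erythrocyte genes. It was 905 FPKM in control tumor 1 and 473 in control tumor 3 against 157 to 362 in the others. Hba-a1, Hbb-bs and Hbb-bt showed this order singly. Hba-a2 and Alas2 did not, and among control tumors both were lowest in tumor 3, at 3.76 and 0.759 FPKM. For neutrophils control tumor 3 held 775 FPKM and control tumor 1 held 371 FPKM in a control range of 227 to 775, and Villin-WlscKO tumors held 591 to 1241. For macrophages control tumor 3 was the lowest control tumor by summed level, at 302 FPKM. Lyz2 alone of the macrophage markers was lowest there, at 179 FPKM against 238 to 602 in the other control tumors. Cd14 and Itgam, at 83.4 and 6.66 FPKM, were highest there among control tumors. For endothelium control tumor 3 was the highest control tumor, at 58.9 FPKM, with 44.6 in control tumor 1.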

How the data were processed

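RNA was sequenced from 5 control and 5 Villin-WlscKO colon tumors with stranded mRNA libraries. The authors aligned reads with TopHat2 2.1.1 to GRCm38.p5 and deposited FPKM values per gene name, made with Cufflinks 2.2.1 and Cuffdiff; they ran this protocol with default settings, which do not use strand, and the depth is not given in the sources used here. All 10 columns were assigned to a tumor by name. 2419 names share all their values with another name.

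From these deposited FPKM values, genes with a mean of at least 0.5 FPKM were fitted as log2(FPKM + 1) with limma 3.58.1 in R 4.3.3, using two-sided moderated tests whose prior variance followed the mean level and Benjamini-Hochberg adjustment across the 16757 genes, beside exact permutation tests over all splits into 5 and 5 tumors in Python 3.11.15. A pseudocount of 1 understates changes of low genes. Spread was taken as the SD of log2(FPKM + 1) within a group, ranked among genes with a mean of at least 5 FPKM. The limma test was tried on simulated data, and each exact test only on a single set of made-up values. The exact test of the SD permutes values centered by group and is therefore approximate.

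The members, lists and tests were chosen with earlier results of these data known. All members are named, and of each list at most 4 genes past the threshold with the largest difference or, where none passed, up to 2 with the lowest adjusted p. Other list genes were named after their values were seen, such as Ptgs2, Vim, Pdgfra, Lyz2, Itgam, Krt18, Hba-a2, Alas2, Cd4, Lck, Kit and Hdc. The 10 genes most like Fos and the 5 most like Atf3 were taken by Pearson r over 10 tumors. Promoters came from RefSeq on GRCm38.p6, for 8 members, without Fosl1 and Egr1. Log2 differences and counts past the threshold were recomputed under 22 other settings. SDs and the overlap of groups were recomputed only under those settings that change the values or leave out tumors. All were also recomputed under 1 setting added after the data were seen, without control tumors 1 and 3.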

Additional observations from a re-analysis of the deposited data

Results flagged for a closer look

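Dusp1 in control tumor 3, at 52.5 FPKM, was far from the other 4 control tumors: its gap to the next tumor was 0.763 of the range of the group on the log2 scale, above Dixon's 95% critical value of 0.71 for 5 samples. It was the only such value among 20 groups of 5 examined (10 genes in 2 groups), and chance gives about 1 in 20 groups.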

How the results depend on the processing

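Egr1, Fosb, Fosl1, Fosl2, Jun, Junb and Jund kept a lower mean log2 value in Villin-WlscKO tumors under all 22 settings planned, and no member passed the limma threshold under any of them except Jun without Villin-WlscKO tumor 4. Scaling tumors to the same FPKM sum turned Fos to 0.0014, and tumor weights turned Fos to 0.12 and Dusp1 to 0.0274. Without control tumors 1 and 3, added after the data were seen, Fos was 0.74, Fosb 0.22, Atf3 0.40 and Dusp1 0.31, 1 member was higher past the threshold (Fos), 2 had groups that did not overlap and 2 had the larger SD in control tumors. Leaving out 1 tumor at a time gave a log2 difference of -0.34 to 0.33 for Fos, -1.05 to -0.28 for Fosb, -0.79 to -0.37 for Fosl1, -0.27 to -0.16 for Fosl2, -0.45 to -0.28 for Jun, -0.28 to -0.13 for Junb, -0.39 to -0.18 for Jund, -0.78 to -0.32 for Egr1, -0.51 to 0.0070 for Atf3 and -0.25 to 0.22 for Dusp1 (the upper value was without control tumor 3 for all but Fosl1 and Jun, which had theirs without Villin-WlscKO tumors 1 and 3; 0.10 for Fos without control tumor 1, 0.03 for Dusp1 without Villin-WlscKO tumor 5), 0 to 1 members lower past the threshold and 0 to 1 with groups that did not overlap. The causes were not tested.

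The SD of Villin-WlscKO minus that of control tumors, without control tumors 1 and 3, was 0.0821 for Fos, 0.31 for Fosb, -0.0057 for Fosl2, 0.14 for Junb, 0.10 for Egr1, 0.21 for Atf3 and 0.38 for Dusp1. It was 0.0200 for Junb at the same FPKM sum and -0.58 for Egr1 without Villin-WlscKO tumors 2 and 3 (exact permutation p = 0.0714). Leaving out 1 tumor gave -1.09 to -0.61 for Fos, -0.69 to -0.16 for Fosb (without Villin-WlscKO tumor 5 and control tumor 3), -0.27 to 0.26 for Fosl1, -0.0905 to 0.0780 for Fosl2 (-0.0222, -0.0225 and -0.0172 without control tumors 1, 2 and 5), 0.0306 to 0.21 for Jun, -0.10 to 0.0921 for Junb, -0.25 to -0.14 for Jund, -0.70 to -0.39 for Egr1, -0.71 to -0.30 for Atf3 and -0.39 to 0.28 for Dusp1.

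The numbers of list genes past the threshold moved as follows. With the replicate number as a replicate block, 4 hypoxia genes, 1 other bZIP factor and 0 squamous genes were higher. In that block fit Fos stayed at -0.10, no member passed and 1627 genes in all did, against 1822 without it. Tumors of the same number correlated at -0.0868 to 0.16 after centering, and 5 of 10 correlated best with their own number. These values do not settle whether the numbers pair tumors, and the main fit did not use them. At the same FPKM sum, 2 cascade genes and 2 squamous genes were higher and 0 bZIP factors and 0 heat shock genes lower; this scaling moved the median of all genes to 0.10. Quantile scaling gave 3 other immediate early genes, 2 bZIP factors, 1 cascade gene, 1 feedback inhibitor and 1 hypoxia gene lower. Tumor weights gave 2 other immediate early genes lower and 0 squamous genes higher. Without Villin-WlscKO tumors 2 and 3, which carry squamous keratins, 0 other immediate early genes, 1 bZIP factor, 0 feedback inhibitors and 0 squamous genes were higher and 0 AP-1 targets and 0 heat shock genes lower. Without control tumors 1 and 3, 2 other immediate early genes and 0 AP-1 targets were lower and 1 bZIP factor and 0 squamous genes higher. Leaving out 1 tumor gave 0 to 2 higher and 1 to 2 lower other immediate early genes, 1 to 2 higher bZIP factors, 0 to 1 higher cascade genes, 2 to 5 higher and 0 to 2 lower AP-1 targets, 0 to 1 higher and 0 to 2 lower heat shock genes, 4 to 7 higher and 0 to 1 lower hypoxia genes and 0 to 1 higher squamous genes.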

Other observations

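Cell type markers differed between the groups in lists that the members do not belong to. Of 8 T cell markers, the receptor chains Cd3g (log2 1.30), Cd3d (0.90) and Cd3e (0.61) and the coreceptor Cd8a (0.88) rose in Villin-WlscKO tumors by limma. Cd4 (-0.05) and Lck (0.08) hardly differed, and Trac (0.96) and Cd2 (0.69) were higher without passing the threshold. Means in control tumors were low, 0.0923 FPKM for Cd8a, 0.364 for Cd3e and 0.481 for Cd3d. The T cell list had a median log2 difference of 0.78 against 0.01 over all genes tested. Of 7 mast cell markers, Gata2 (log2 -1.33) and Ms4a2 (-0.90), a chain of the IgE receptor, fell, with a median of -0.67, or -0.41 when Mcpt1 and Mcpt2, which are listed with the same values, are counted once. Kit (0.34) and Hdc (0.11) of that list were higher, neither past the threshold. Krt20, a keratin of differentiated colon epithelium, rose among the 10 epithelial markers (log2 0.91), Cd14 among 8 macrophage markers (0.67) and Mzb1, a plasma cell gene, among 6 B and plasma cell markers (1.68).

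No marker of fibroblasts (10), smooth muscle (8), endothelium (8), neutrophils (6), enteric neurons and glia (2 of 8 listed) or erythrocytes (5) passed the limma threshold. An unadjusted limma p under 0.05 was reached by 5 of 6 neutrophil markers and 0 of the others, and by 4308 of all 16757 genes tested. Neutrophil markers had a median log2 difference of 0.90 and erythrocyte markers one of -0.44. Of 12 squamous genes Sprr1a alone passed it, with a median log2 difference of 0.76 over the list.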
